A study of Saccharomyces cerevisiae with 3 samples.

Results

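Tandem gene pairs are neighbouring genes transcribed in the same direction, so that the interval between them holds the end region of the upstream gene and the promoter of the downstream gene. Tandem intervals were taken as the stretches of 100 to 2000 bp between neighbouring nuclear protein-coding genes whose systematic names both carried W (the strand read left to right) or both carried C. The rule used gene positions only, and it found 2691 tandem intervals among 5437 intervals of that length between neighbours, the others being 1431 divergent and 1315 convergent ones. Of the tandem pairs, 1365 lay on the W strand and 1326 on the C strand, on all 16 nuclear chromosomes. The intervals had a median length of 399 bp, with quartiles at 283 and 601.5 bp, and together covered 1379606 bp. A further 122 tandem neighbours lay closer together than 100 bp or overlapped, and 83 lay farther apart than 2000 bp.

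The chromatin came from the haploid laboratory strain BY4741 of budding yeast (Saccharomyces cerevisiae), grown to mid-log phase in the rich glucose medium YEPD. After formaldehyde fixation, nuclear chromatin was cut with micrococcal nuclease (MNase), and antibodies enriched fragments whose histone H3 carried 2 methyl groups on lysine 4 (H3K4me2) or 3 of them (H3K4me3). There are 3 samples: a single library for each mark and an input made with no antibody. What was analysed is the list of enriched regions (peaks) of each marked library, on the genome build sacCer3. The design asks where both marks lie across the genome.

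In budding yeast all methylation of this lysine is made by Set1, the catalytic subunit of the COMPASS complex, which travels with RNA polymerase II early in transcription. Trimethylation is known from the first nucleosomes of transcribed genes and dimethylation from the nucleosomes that follow. Between tandem genes the polymerase finishes the upstream gene close to the place where another polymerase starts the downstream gene. A tandem interval therefore has an end side, which either mark reaches only where its domain extends through the upstream gene, and a promoter side, which usually holds a stretch with few nucleosomes just before the transcription start. MNase leaves few fragments from such stretches whatever the histones carry; the input has no peak list here, so the part of nucleosome occupancy in low interval coverage was not tested.

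The H3K4me3 list held 3714 peaks with a median of 391 tags (sequence reads) and the H3K4me2 list 2998 peaks with a median of 453 tags. The authors' fold enrichment per peak ran from 1.85 to 4.79 and from 1.84 to 4.09, respectively, and served only to rank peaks within a list. Each mark has 1 library and hence no replicates, so the marks were not tested against each other and p-values are left out. Shares carry exact (Clopper-Pearson) 95% intervals and differences of shares carry Newcombe's interval. Both cover counting error only, and neighbouring genes, which can share a peak, are not independent.

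Each pair was read in 3 windows: the last 500 bp of the upstream gene, the interval, and the first 500 bp of the downstream gene, counted from its start codon because the gene table holds no untranslated regions. Genes shorter than 500 bp (395 upstream and 320 downstream) were used whole. A window counted as covered when at least 50% of it lay under peaks of the mark. H3K4me3 covered 957 upstream ends, or 35.6% (33.8 to 37.4), against 31.8% of the ends of all 6002 nuclear protein-coding genes. It covered 587 intervals, or 21.8% (20.3 to 23.4), against 23.9% of intervals of every orientation, and 1746 downstream starts, or 64.9% (63.0 to 66.7), against 64.6% of all gene starts. H3K4me2 covered 1033 upstream ends, or 38.4% (36.5 to 40.3), against 32.4%, and 1189 downstream starts, or 44.2% (42.3 to 46.1), against 43.5%. It covered 155 intervals, or 5.76% (4.91 to 6.71), against 6.81%. The gene starts of tandem pairs thus carried either mark about as often as all gene starts did, and at this limit, over all tandem pairs, the interval was the least covered window for both marks. For H3K4me3 that order depends on the limit: with 25% in place of 50%, 45.4% of intervals and 39.2% of upstream ends were covered. It also did not hold in intervals of 100 to 200 bp (47.8% against 41.0% of ends). Nor did it hold behind upstream genes of at least 1500 bp (10.2% of intervals against 6.82% of ends).

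The marks seldom crossed a tandem interval without a break. A single H3K4me3 peak contained the whole interval in 104 pairs, or 3.86% (3.17 to 4.66), against 4.91% of intervals of every orientation. For H3K4me2 this held in 22 pairs, or 0.818% (0.513 to 1.24), against 1.77%. H3K4me3 touched at least 1 base of 1769 intervals (65.7%), against 62% of intervals of every orientation, and H3K4me2 of 1055 (39.2%), against 36.2%. No base of either mark lay in 726 intervals, or 27.0% (25.3 to 28.7), against 30.6%.

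Among the patterns over the 3 windows, H3K4me3 at the downstream start alone was the most frequent for that mark, in 855 pairs (31.8%). All 3 windows were covered in 386 pairs (14.3%), both genes but not the interval in 325 (12.1%), the interval with the downstream start in 180 (6.69%), the upstream end alone in 227 (8.44%) and none in 697 (25.9%). An interval covered together with the upstream end but not the downstream start occurred in 19 pairs, and one covered on its own in 2. For H3K4me2 the most frequent state was no covered window, in 1018 pairs (37.8%), followed by the downstream start alone in 615 (22.9%), the upstream end alone in 458 (17%) and both genes but not the interval in 445 (16.5%). No tandem interval was covered by H3K4me2 on its own. H3K4me3 at the downstream start was combined with H3K4me2 at the upstream end in 750 pairs, or 27.9% (26.2 to 29.6). Taken separately, H3K4me3 covered 64.9% of downstream starts and H3K4me2 38.4% of upstream ends. Whether they met more often than these shares alone would give was not tested, and the patterns were not counted in the other orientations.

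For H3K4me3, interval length went with the coverage of the interval far more than with that of the genes beside it. The length classes named here hold their lower bound and, except for the last, not their upper one. The share of intervals covered by H3K4me3 was 47.8% (40.2 to 55.4) at 100 to 200 bp (178 intervals), 35.7% at 200 to 300 bp (605), 21.9% at 300 to 500 bp (986), 9.15% at 500 to 1000 bp (656) and 3.76% (1.82 to 6.80) at 1000 to 2000 bp (266). The shortest class exceeded the longest by 44.0 percentage points (36.2 to 51.5). This fall is largely set by the measure. The median promoter-side edge of H3K4me3 lay only 116 to 156 bp before the start codon in all classes. A peak of that reach covers at least 50% of the shortest intervals, but not of the longest. H3K4me2 covered 13.5%, 8.60%, 5.17%, 3.51% and 1.88% of the same classes, a difference of 11.6 points (6.70 to 17.5) between the first and the last. The downstream starts were covered by H3K4me3 in 63.5%, 66.9%, 69.0%, 62.2% and 52.6% of pairs, so for this mark the gene starts changed by much less, and not in 1 direction. The upstream ends were covered by H3K4me3 in 41.0%, 36.7%, 36.2%, 35.8% and 26.3%. The H3K4me2 shares were 37.6%, 35.7%, 47.4%, 48.8% and 44.7% of downstream starts and 34.8%, 38.2%, 39.9%, 39.9% and 32.0% of upstream ends. For H3K4me2 the downstream starts thus changed no less than the intervals.

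**Figure D1:**
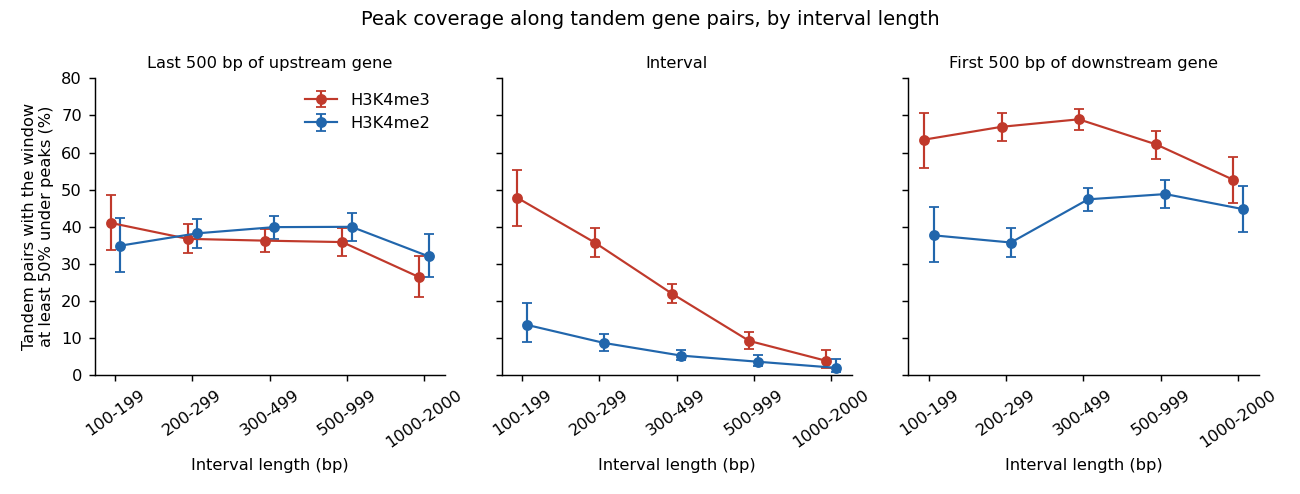
Percentage of tandem pairs (y axis) whose upstream gene end, interval or downstream gene start was at least 50% under peaks, by interval length in bp (x axis). Points are shares of the H3K4me3 (red) and H3K4me2 (blue) libraries and bars are exact 95% intervals; H3K4me3 over the interval falls from 47.8% in the shortest to 3.76% in the longest class, while the downstream start stays between 52.6% and 69.0%.

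Single H3K4me3 peaks that contained the interval were limited to short ones. They numbered 36 of 178 intervals (20.2%) at 100 to 200 bp, 54 of 605 (8.93%) at 200 to 300 bp and 14 of 986 (1.42%) at 300 to 500 bp. No H3K4me3 peak did so in the 656 intervals of 500 to 1000 bp, where the exact upper limit is 0.561%, or in the 266 longer ones. For H3K4me2 the counts were 7, 9, 5, 1 and 0 over the same classes. At the borders of the rule, H3K4me3 covered 11 of 27 tandem intervals of 50 to 99 bp, outside it, and 31 of 51 of 100 to 149 bp, inside it. At the far border it covered 3 of 83 intervals of 1501 to 2000 bp, inside, and 1 of 25 of 2001 to 2500 bp, outside.

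At a fixed distance from the downstream gene, the H3K4me3 share differed less between length classes than the share of covered intervals did. Over the start codon itself it was 57.9%, 59.2%, 62.7%, 56.3% and 47.4% from the shortest to the longest class, the last being lower than the 200 to 300 bp class by 11.8 points (4.62 to 18.9). At 100 bp before the start codon H3K4me3 was present in 43.3%, 43.1%, 47.2%, 45.1% and 40.2% of pairs in the same order, with the exact interval of the last running from 34.3% to 46.4%. At 200 bp before it, the share was 23.0% (19.7 to 26.5) in intervals of 200 to 300 bp, where that position lies within 100 bp of the upstream gene, 12.8% at 300 to 500 bp, 13% at 500 to 1000 bp and 12% at 1000 to 2000 bp. The lowest share inside the interval, read every 10 bp as far as the lower bound of the class, was 43.3% in intervals of 100 to 200 bp, 20.2% at 170 bp before the start codon in those of 200 to 300 bp, 10.4% at 220 bp in those of 300 to 500 bp and 2.63% at 650 bp in the longest. At 300 bp before it, the shares were 15.7%, 5.18% and 5.26% in the classes from 300 to 500 bp upwards.

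**Figure D2:**
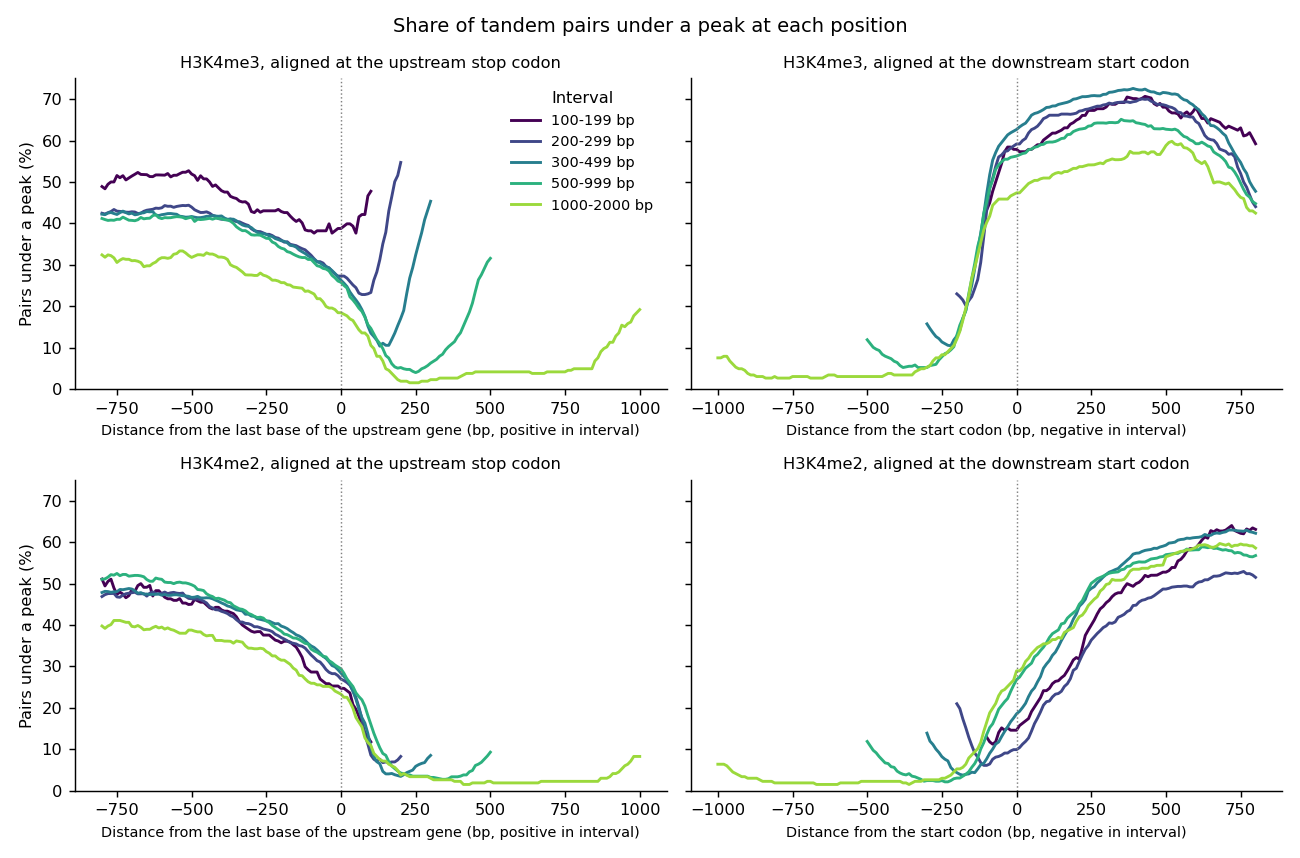
Percentage of tandem pairs with a peak (y axis) at each distance in bp from the last base of the upstream gene (left) or from the downstream start codon (right), for H3K4me3 (top) and H3K4me2 (bottom); lines are interval length classes, and inside genes only genes long enough to reach a position are counted. H3K4me3 lines nearly coincide at 100 bp before the start codon (40.2% to 47.2%), whereas H3K4me2 lines spread at the start codon, from 9.92% at 200 to 300 bp to 28.9% at 1000 to 2000 bp.

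The reach of the peaks was also read from their edges. An H3K4me3 peak lay over the start codon of the downstream gene in 1574 pairs, or 58.5% (56.6 to 60.4), and its edge on the promoter side lay a median of 132 bp before the start codon, with quartiles at 101 and 182 bp. The median was 116 bp in the shortest class and 119, 132.5, 146 and 156 bp in the longer ones. The edge lay inside the upstream gene in 104 of the 1574 pairs (6.61%). H3K4me2 lay over 522 start codons, or 19.4% (17.9 to 20.9), with a median edge at 96 bp.

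On the other side, both marks ran out soon after the upstream stop codon. In intervals of 1000 to 2000 bp, H3K4me3 lay over the last base of the upstream gene in 18.4% of pairs and over the base 100 bp beyond it in 10.5%. H3K4me2 did so in 23.3% and 10.9%. In intervals of 500 to 1000 bp the H3K4me3 shares were 25.8% and 14.6% and the H3K4me2 shares 29.4% and 16%. At the stop codon both lists thus had similar shares in these classes, unlike at the start codon. In intervals of 100 to 200 bp the shares at the last base of the upstream gene were 38.8% for H3K4me3 and 24.7% for H3K4me2.

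Splitting each interval at its midpoint showed opposite leanings of the marks. H3K4me3 covered on average 39.0% of the segment next to the downstream start and 17.1% of the segment next to the upstream gene. Of the 1664 intervals with unequal coverage, 1345, or 80.8% (78.9 to 82.7), had more H3K4me3 on the downstream side, and the share was between 77.9% and 84.1% in every length class. H3K4me2 covered on average 8.79% of the downstream and 13.6% of the upstream segment, and 395 of 1031 unequal intervals, or 38.3% (35.3 to 41.4), had more of it on the downstream side. That share was 20.7% (15.0 to 27.3) at 200 to 300 bp, 46.6% (40.9 to 52.3) at 500 to 1000 bp and 54.4% (44.8 to 63.7) at 1000 to 2000 bp. The leaning towards the upstream gene was thus not clear at 500 to 1000 bp and not seen in the longest intervals.

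Where the same mark stood on both flanks, the gap was wider in longer intervals. That order is largely set by the length classes themselves, since the median promoter-side edge of H3K4me3 lay only 116 to 156 bp before the start codon in all of them. In 516 pairs H3K4me3 lay over the last base of the upstream gene and over the downstream start codon. In 104 of them the interval had no uncovered base, and in the other 412 the longest uncovered stretch had a median of 152 bp. Its median was 24 bp at 100 to 200 bp, 56 bp at 200 to 300 bp, 141 bp at 300 to 500 bp, 340.5 bp at 500 to 1000 bp and 897 bp at 1000 to 2000 bp. Narrow gaps do occur in the list, whose closest H3K4me3 peaks were 1 bp apart.

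Peak summits, the points of highest enrichment within a peak, seldom lay between tandem genes, as in intervals of the other orientations. Tandem intervals held 28 of the 3714 H3K4me3 summits, or 0.0203 per kb, while the downstream start windows held 1428 (1.11 per kb) and the upstream end windows 472 (0.370 per kb). They held 10 of the 2998 H3K4me2 summits (0.00725 per kb), against 449 in downstream starts (0.348 per kb) and 549 in upstream ends (0.430 per kb). Divergent and convergent intervals held 0.0307 and 0.0112 H3K4me3 summits per kb and 0.0142 and 0.00896 H3K4me2 summits per kb. For H3K4me2 the upstream ends of tandem pairs held more summits than the downstream starts, which is the reverse of H3K4me3. Of the 28 H3K4me3 summits, 14 lay within 100 bp of the downstream start codon, 3 within 100 bp of the upstream gene, and 11 farther from both. Of the 28 intervals, 18 were at least 500 bp long.

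The highest H3K4me3 fold with a summit in a tandem interval was that of the peak between GON7, which encodes a subunit of the KEOPS complex that modifies tRNAs, and MNN11, a Golgi mannosyltransferase gene (YJL184W and YJL183W, chromosome X, interval 83820 to 84067). That peak had a fold of 3.82 and 645 tags, covered all 3 windows, and had its summit 5 bp before the MNN11 start codon. Between KIC1, a protein kinase gene, and SBE22, a gene of cell wall formation (chromosome VIII, interval 319815 to 320413), the peak had a fold of 3.36 and its summit 6 bp before the start codon. Both summits thus sat at the very edge of the downstream gene.

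Between RVS167, which encodes a membrane-bending protein of endocytosis, and SAC7, a GTPase-activating protein of Rho1 (YDR388W and YDR389W, chromosome IV, interval 1251635 to 1252536), the summit lay 485 bp before the SAC7 start codon. The peak had a fold of 3.22 and 605 tags and covered 78.0% of an interval of 902 bp without reaching RVS167. The end of RVS167 was 98.4% under H3K4me2 and the start of SAC7 was fully under both marks. Between YER175W-A and the helicase gene ECM32 (chromosome V, interval 540815 to 541689), a narrow peak with a fold of 3.60 and 174 tags had its summit 624 bp before the ECM32 start codon, separate from the peak over ECM32 itself. The summit between GYP1 and VAM10 (chromosome XV, interval 454214 to 455906; fold 3.25) lay 16 bp before VAM10, in an interval that another protein-coding gene overlaps.

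H3K4me2 summits in tandem intervals were led by that between RPR2, a subunit gene of RNase P, and YIR016W (chromosome IX, interval 382383 to 382627), with a fold of 2.99 and 820 tags, 33 bp before the start codon. The YIR016W start had no H3K4me3. Between STL1, a glycerol transporter gene, and PAD1 (chromosome IV, interval 1509715 to 1510901) lay an H3K4me2 peak with a fold of 2.76. An H3K4me3 peak there had a fold of 2.68. Their summits lay 421 and 426 bp before the PAD1 start codon. Both flanking windows of that pair were fully under H3K4me2 and free of H3K4me3. The other 3 highest lay between YNL143C and MPF1, between HXT3 and YDR344C, and between RRN10 and NCL1, with folds of 2.87, 2.54 and 2.5.

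The longest tandem interval inside a single H3K4me3 peak measured 451 bp and lay between RGM1, a zinc-finger protein gene, and YMR181C (YMR182C and YMR181C, chromosome XIII, interval 624081 to 624531). The peak was 1703 bp wide, with a fold of 3.71 and 734 tags. A single H3K4me2 peak of 1906 bp, with a fold of 3.38 and 991 tags, contained the same interval, which was one of 7 intervals inside a single peak of both marks. The next were VPS51-ALY1 (401 bp), RPL2A-SMC2 (400 bp), YIP4-MDS3 (399 bp) and CIN4-RIM11 (394 bp). The upstream genes of these 5 pairs were between 495 and 912 bp long. VPS51-ALY1 and RPL2A-SMC2, whose downstream genes encode an arrestin-like adaptor and a condensin subunit, had no H3K4me2 in any of the 3 windows.

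The longest tandem interval inside a single H3K4me2 peak measured 874 bp, between YOR376W-A and ATF1, an alcohol acetyltransferase gene of ester formation (chromosome XV, interval 1045352 to 1046225). The peak was 1984 bp wide, with a fold of 2.87 and 838 tags, whereas H3K4me3 covered 22.4% of the interval and 91.8% of the ATF1 start. The others were GPI19-THI74, LYS20-INH1 (455 bp), RGM1-YMR181C (451 bp) and SEC22-DCS1 (341 bp). In GPI19-THI74 and SEC22-DCS1 the downstream start had H3K4me2 throughout and no H3K4me3, while the upstream end was fully under H3K4me3.

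**Figure D3:**
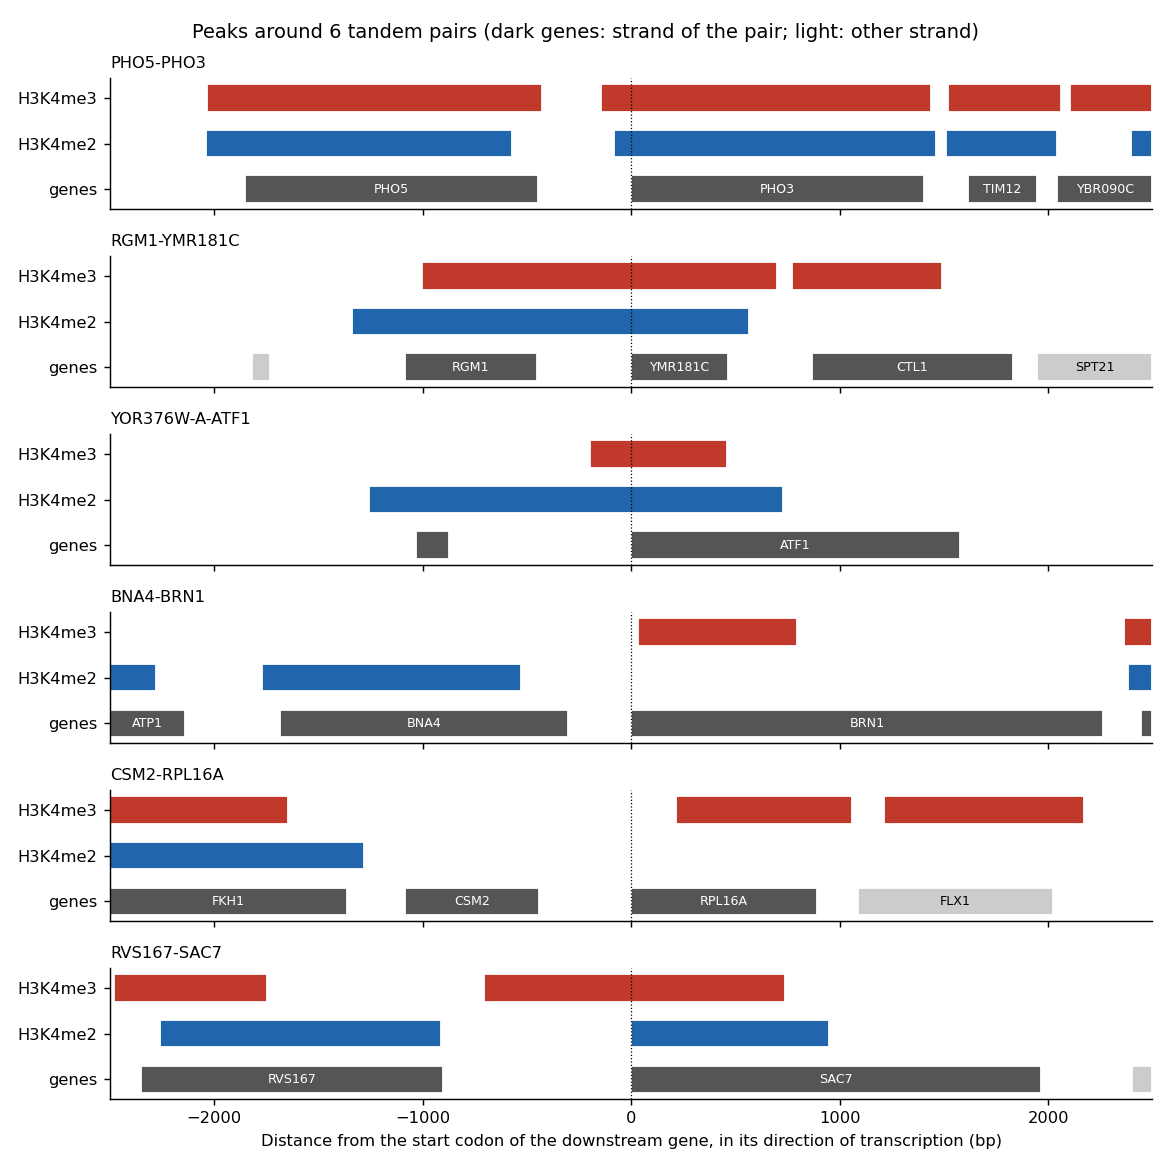
Peaks of H3K4me3 (red) and H3K4me2 (blue) and genes (dark grey on the strand of the pair, light grey on the other) around 6 tandem pairs, by distance in bp from the downstream start codon (dotted line), with transcription of the pair running to the right. The H3K4me3 peak starts 144 bp before the PHO3 start codon after a gap of 284 bp, a single peak of each mark covers the 451 bp between RGM1 and YMR181C, and no peak lies in the 303 bp between BNA4 and BRN1.

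The coverage of upstream ends and of intervals differed with the length of the upstream gene. The end of the upstream gene was covered by H3K4me3 in 53.0% of upstream genes under 750 bp, 64.1% of those of 750 to under 1250 bp, 17.3% of those of 1250 to under 2000 bp and 3.96% of longer ones. H3K4me2 covered 24.0%, 68.5%, 48.1% and 10.2% of the same ends. The H3K4me3 share of intervals fell over all 4 classes, from 37.2% to 25.8%, 14% and 8.25%, also between the first pair of classes, where the share of ends was higher in the second. So did the share of intervals inside a single H3K4me3 peak, from 10.01% to 3.96%, 0.720% and 0.165%. The H3K4me3 share of downstream starts moved less, from 68.7% to 67.0%, 64.4% and 58.6%.

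In the 1041 pairs whose upstream gene was at least 1500 bp long, where the start and end windows of that gene lie well apart, H3K4me3 covered 6.82% of the ends, 10.2% of the intervals and 61.5% of the downstream starts. The decline with interval length was smaller there and not seen between 100 to 200 bp and 200 to 300 bp. H3K4me3 covered 8 of 41 intervals of 100 to 200 bp (19.5%), against 47.8% of that class over all tandem pairs. The longer classes had 20.4%, 8.93%, 3.86% and 3.06%. H3K4me2 covered 22.3% of these ends, 1.63% of the intervals and 39.7% of the downstream starts. For H3K4me3, downstream starts were covered more often behind genes with a covered start. The downstream start was covered in 64.4% of the 738 pairs with a covered upstream start and in 54.5% of the 303 without. That is a difference of 9.91 points (3.36 to 16.5). Split by interval length, the H3K4me3 difference was positive in every class. Its interval excluded 0 only at 500 to 1000 bp (15.7 points, 2.42 to 28.5). For H3K4me2 the difference over all classes, 5.83 points (-0.137 to 11.7), had an interval that includes 0.

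H3K4me2 at the downstream start codon was more frequent behind longer intervals. It lay over 14.6% (9.77 to 20.7) of start codons at 100 to 200 bp, 9.92% (7.65 to 12.6) at 200 to 300 bp, 18.6% at 300 to 500 bp, 26.8% at 500 to 1000 bp and 28.9% (23.6 to 34.8) at 1000 to 2000 bp. Downstream genes of at least 1000 bp showed it more clearly, with 13.3%, 9.52%, 20.6%, 31.4% and 35%. The longest class was compared with that of 200 to 300 bp, which had the lowest H3K4me2 share, lower than the shortest class. The difference in these genes was 25.5 points (17.7 to 33.6) for H3K4me2 and -0.0298 points (-9.17 to 8.79) for H3K4me3. Among downstream genes under 1000 bp it was 9.33 points (1.48 to 18.5) for H3K4me2, and H3K4me3 was 29.8 points (18.8 to 39.3) less frequent in the longest class. Divergent pairs were read only at the start codon of their right gene, which lies on the W strand. They had a similar order of H3K4me2 shares over the classes, with 16.9%, 13.2%, 20.7%, 31.1% and 35.1%, so the order was not particular to tandem pairs. The levels are not directly comparable, as in tandem pairs H3K4me2 lay over 22.3% of start codons on W and 16.4% on C.

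**Figure D4:**
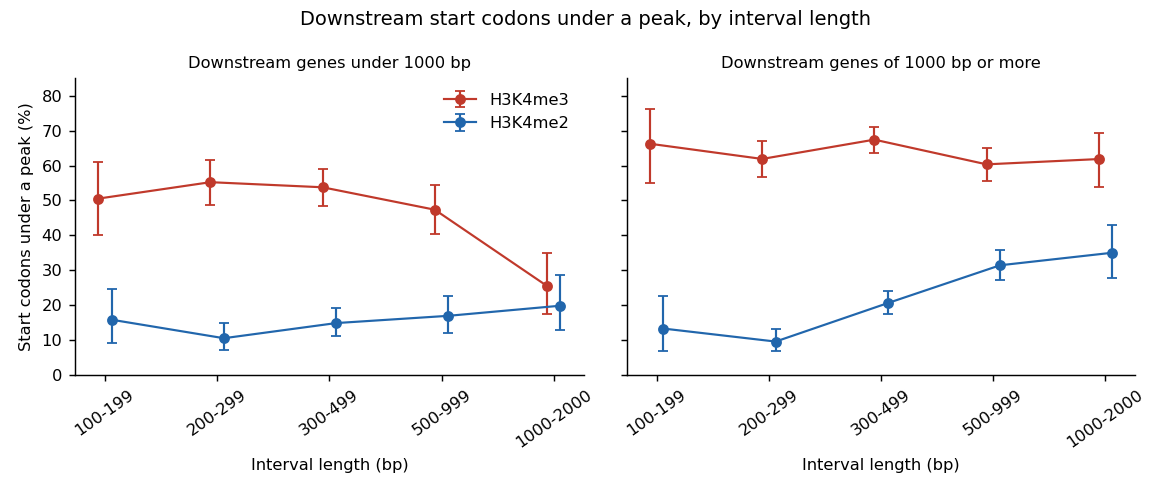
Percentage of downstream start codons of tandem pairs under a peak (y axis), by interval length in bp (x axis), for downstream genes under 1000 bp (left) and of 1000 bp or more (right). Points are shares for H3K4me3 (red) and H3K4me2 (blue) with exact 95% intervals; in the longer genes H3K4me2 goes from 9.52% at 200 to 300 bp to 35% at 1000 to 2000 bp.

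Among intervals of the same length, the H3K4me3 share of tandem ones stood between that of divergent ones, which have a gene start at each side, and that of convergent ones, which have a gene end at each side. At 100 to 200 bp H3K4me3 covered 47.8% of tandem, 59.0% of divergent and 17.7% of convergent intervals, and the difference of -11.3 points (-23.6 to 1.72) between tandem and divergent ones included 0. At 200 to 300 bp H3K4me3 covered 35.7% of tandem, 63.0% of divergent and 14.9% of convergent intervals. Tandem intervals were lower than divergent ones by 27.3 points (20.5 to 33.8) and higher than convergent ones by 20.8 points (15.3 to 25.9). At 300 to 500 bp the shares were 21.9%, 52.9% and 9.44%, and at 500 to 1000 bp 9.15%, 22.5% and 3.52%. At 1000 to 2000 bp they were 3.76%, 6.38% and 3.28%, and both differences had intervals that include 0. H3K4me2 covered 8.60% of tandem, 4.62% of divergent and 11.6% of convergent intervals at 200 to 300 bp. There, tandem intervals exceeded divergent ones by 3.97 points (0.393 to 7.09), and the difference of -3.01 points (-7.21 to 0.826) from convergent ones included 0. In each of the other 4 classes, too, the H3K4me2 differences of tandem from divergent and from convergent intervals had intervals that include 0.

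**Figure D5:**
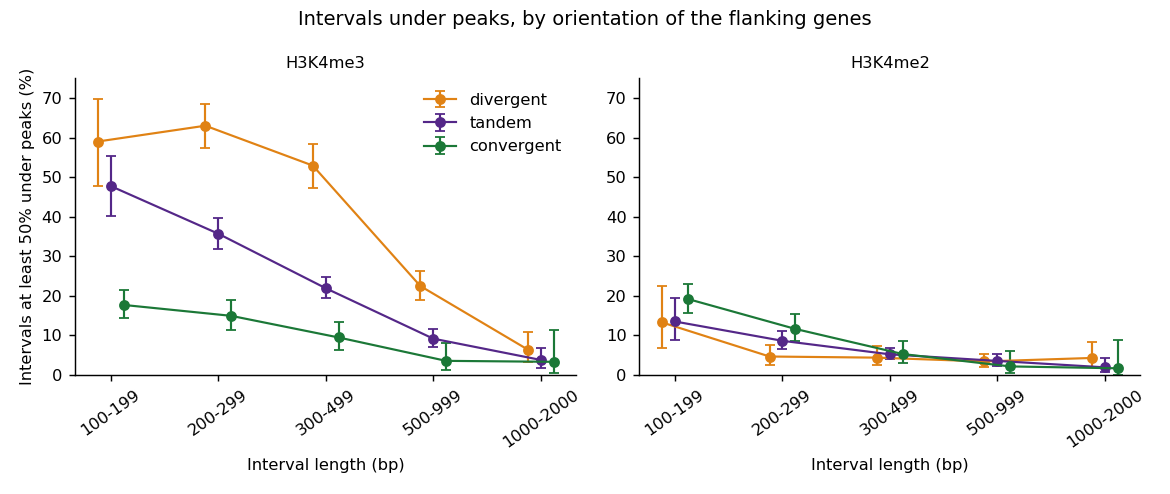
Percentage of intervals at least 50% under peaks (y axis) by interval length in bp (x axis) for divergent (orange), tandem (purple) and convergent (green) neighbours, H3K4me3 left and H3K4me2 right. Points are shares with exact 95% intervals; at 200 to 300 bp H3K4me3 covers 63.0%, 35.7% and 14.9% in that order.

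In 17 pairs (0.632%) H3K4me3 covered the downstream start and H3K4me2 the upstream end while the interval held no base of either mark. The 5 with the highest H3K4me3 fold at the downstream start were FAF1-RPL2B (3.85), BNA4-BRN1 (3.75), RHO4-TRM2 (3.74), YBL086C-RPL23A (3.73) and YML6-RPS18B (3.55). Of these downstream genes, 3 encode cytosolic ribosomal proteins, as do 60 of all 2691 tandem downstream genes. The 5 were picked by fold and the group was not counted among all 17 pairs, so the 3 show no trait of that group. Between BNA4, an enzyme gene of NAD synthesis, and BRN1, a condensin subunit gene (YBL098W and YBL097W, chromosome II, interval 40528 to 40830), H3K4me2 covered 54.8% of the BNA4 end and H3K4me3 93.6% of the BRN1 start. Neither mark was over the interval of 303 bp.

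Counts for downstream genes of 7 functional groups are given as descriptions, beside 64.9% of starts with H3K4me3 and 44.2% with H3K4me2 over all tandem pairs. Of the 60 tandem downstream genes for cytosolic ribosomal proteins, H3K4me3 covered 44 starts (73.3%; 60.3 to 83.9) and H3K4me2 none, with an exact upper limit of 5.96%. H3K4me3 lay over the start codon itself in 19 of the 60, with its edge a median of 83 bp before it, and covered 5 of their intervals (8.33%; 2.76 to 18.4). These intervals had a median length of 547.5 bp, against 399 bp over all tandem intervals. RPL16A, behind CSM2 (chromosome IX, interval 99417 to 99859), had an H3K4me3 peak with a fold of 4.48 that covered 57.0% of its start window but neither the start codon nor the interval. RPS19B, behind RPL18B, had a fold of 4.41, and RPL4B, behind SNQ2 and an interval of 1428 bp, had no base of either mark in the 3 windows. Ribosomal protein genes often occur as near-identical copies, so reads could match both, and the sources used here do not say how such reads were placed.

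Of the 27 downstream genes for mitochondrial ribosomal proteins, H3K4me3 covered 19 starts (70.4%) and 7 intervals, and H3K4me2 covered 3 starts. MRPL1, behind TMA64, had a fold of 3.60 with the edge of the H3K4me3 peak 97 bp before its start codon. Of the 38 ribosome biogenesis genes, H3K4me3 covered 34 starts (89.5%; 75.2 to 97.1) and 6 intervals, and H3K4me2 17 starts. The highest folds there were those of NOP12, behind RPS15 (4.02), and DBP2, an RNA helicase gene behind RPC19 (3.83). Of the 12 proteasome genes H3K4me3 covered 10 starts and 1 interval, with RPN3, a subunit of the regulatory particle, at a fold of 4.12. The exception with the longest interval, RPN14 behind CDH1, had H3K4me2 over 51.8% of its start and no H3K4me3.

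Amino acid biosynthesis genes had both marks. Of 36 downstream genes, H3K4me3 covered 32 starts (88.9%; 73.9 to 96.9) and 10 intervals (27.8%), and H3K4me2 26 starts (72.2%; 54.8 to 85.8). Between STP22 and ILV6, the regulatory subunit gene of acetolactate synthase (chromosome III, interval 105549 to 105695), a single H3K4me3 peak with a fold of 3.88 and 1584 tags contained all 3 windows. The longest interval without H3K4me3 at the start in this group lay before LEU2, a gene that is deleted in BY4741, so its missing peaks say nothing of the marks.

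Genes of meiosis and genes repressed by glucose had few starts under H3K4me3. Of 16 downstream genes of meiosis and sporulation H3K4me3 covered no start, with an exact upper limit of 20.6%, and no interval, and H3K4me2 covered 1 start. The ends of their upstream neighbours were covered by H3K4me3 in 7 of 16 pairs (43.8%) and by H3K4me2 in 7, close to the shares over all tandem pairs. Before SPS100, a spore wall gene, the interval of 908 bp held no H3K4me3. H3K4me2 covered the start window fully from 38 bp before the start codon, and H3K4me3 covered 34.8% of that window. Of 11 glucose-repressed downstream genes, H3K4me3 covered 1 start, that of the gluconeogenic gene FBP1 behind SEC61 (56.8% of the window, fold 3.12), and H3K4me2 covered 4 (36.4%; 10.9 to 69.2).

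A list of 17 gene pairs, mostly paralogues or pathway neighbours, was looked up by name, and 8 of them were members. PHO5 and PHO3, acid phosphatase genes (YBR093C and YBR092C, chromosome II, interval 429102 to 429547), both carried both marks. The end of PHO5 was fully under H3K4me3 and 75% under H3K4me2, and the start of PHO3 was fully under both. H3K4me3 left a gap of 284 bp and H3K4me2 one of 362 bp in the interval of 446 bp. Another 4 of these pairs had no base of either mark in the 3 windows. They were GAL10-GAL7 of galactose use (interval of 725 bp), ALD2-ALD3 of aldehyde oxidation (689 bp), and ENA1-ENA2 and ENA2-ENA5 of sodium export (609 bp each). The ENA genes are near-identical copies, and the placing of reads that match several copies is not stated.

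In the allantoin gene cluster on chromosome IX the pairs differed. Between DAL3 and DAL7 (interval 414680 to 415029), the DAL7 start was fully under both marks and the interval was 52.9% under H3K4me3, while the DAL3 end was fully under H3K4me2 without H3K4me3. The DAL2 start behind DAL4 was 98.0% under H3K4me2 and free of H3K4me3. The DCG1 start behind DAL7 carried neither mark.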

How the data were processed

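The submitters' processing notes name CASAVA 1.8.2, the peak caller MACS 1.4.2 and build sacCer3; of settings, aligner and control the sources used here say nothing. Each mark has 1 list of peaks, deposited by the authors from 1 library. Per the file headers, each peak has a tag count (whole numbers without normalisation), a fold enrichment (a ratio to an unnamed background) and a p-value column; its values, deposited by the authors as a score without a stated scale, were read as -10 times the log10 of p. Sequencing depth beyond the tags in peaks is unknown.

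Genes came from the RefSeq table of assembly R64, the one sacCer3 names; strand was taken from the systematic name. Coverage, edges, gaps and summits were computed from all deposited peaks with Python 3.11.15, numpy 2.4.6, pandas 2.3.3, scipy 1.17.1 and matplotlib 3.10.9, after the functions were tested on simulated peaks. Exact 95% intervals cover counting error only. Members, gene lists and named pairs were chosen with earlier results of these data known. Named are, per mark, the 5 intervals with the summit of highest fold and the 5 longest inside a single peak, the 5 longest unmarked, the 5 strongest with marked genes and an empty interval, the listed pairs, and from each gene list the 2 highest H3K4me3 folds and the longest interval without H3K4me3 at the start, the text giving those that carry a comparison. The alternatives tried were peaks with a score of 100 or more, peaks of 500 bp around the summit, a limit of 25%, windows of 250 bp, and intervals without another annotated gene.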

Additional observations from a re-analysis of the deposited data

How the results depend on the processing

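Of 42 values recomputed under the alternatives, 17 stayed within the counting interval of the value reported and 25 moved. No difference between the shortest and longest class changed sign, and the shares, which make up the other values, cannot do so. The order of the windows did change: H3K4me3 covered more intervals than upstream ends at the limit of 25%, and H3K4me2 covered fewer downstream starts than upstream ends with windows of 250 bp and with 500 bp around each summit. Shares are given for upstream ends, intervals and downstream starts in that order. With peaks of a score of at least 100, H3K4me3 covered 31.7%, 19.2% and 54.5%, and H3K4me2 30.8%, 4.53% and 33.5%. With 500 bp around each summit, H3K4me3 covered 17.8%, 3.27% and 53.3%, with 0.334% inside a single peak and a difference between shortest and longest class of 8.24 points, and H3K4me2 covered 20.7%, 0.929% and 16.9%, with 0.111% and 5.06 points; these peaks are narrower than the deposited ones by construction. With a limit of 25%, H3K4me3 covered 39.2% of ends and 45.4% of intervals, and H3K4me2 40.5% of ends, 17.3% of intervals and 49.1% of starts, with a class difference of 21.9 points. With windows of 250 bp, H3K4me3 covered 32.1% of ends, and H3K4me2 34.5% of ends and 31.7% of starts. The cause of the other moves was not tested. Without intervals that hold another annotated gene, all 10 values stayed within their intervals. No paired analysis was possible because each mark has 1 library and no test was run. The share of intervals called covered thus rests on the limit and on where the peak caller ended its peaks, and the number of tags in a library limits how low an enrichment either list can hold.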

Other observations

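Tandem pairs with no base of either mark in the 3 windows numbered 425, or 15.8% (14.4 to 17.2). They made up 60 of the 114 pairs within 25000 bp of the first or last gene of a chromosome, or 52.6% (43.1 to 62.1), and 365 of the other 2577, or 14.2% (12.8 to 15.6). The 5 longest such intervals lay before IRC4 (1988 bp), DDI3 (1979 bp), DDI2 (1976 bp), PAU12 (1952 bp) and PAU24 (1951 bp). Their upstream genes are YDR541C, COS4, COS1, MAL12 and MAL32. COS, DDI, PAU and MAL genes have near-identical copies, and the placing of reads that match several copies is not stated. Pairs without either mark were not counted in the other orientations, so neither their share nor its rise near chromosome ends can be called particular to tandem pairs.

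Another annotated gene lay in 149 tandem intervals, most often a tRNA gene (99 intervals, median length 1194 bp). At 1000 to 2000 bp, H3K4me2 covered the downstream start in 19 of the 64 intervals with a tRNA gene, or 29.7% (18.9 to 42.4), and in 92 of the 188 without any other gene, or 48.9% (41.6 to 56.3). H3K4me3 covered 59.4% (46.4 to 71.5) and 48.4% (41.1 to 55.8) of the same starts.

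The leaning of H3K4me2 within the interval differed by strand. More H3K4me2 lay on the downstream side in 43.8% (39.5 to 48.2) of the unequal tandem intervals of W pairs and in 32.8% (28.8 to 37.1) of those of C pairs. For H3K4me3 the shares were 82.4% and 79.2%. In divergent intervals, which have a gene start at both sides, the right segment had more H3K4me2 in 298 of 489 unequal intervals, or 60.9% (56.5 to 65.3), and more H3K4me3 in 54.0% (51.0 to 57.0) of 1059. The cause was not tested.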
